A study of Homo sapiens with 8 samples.

Results

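The BCL2 family is the set of proteins that decides whether the mitochondrial outer membrane is opened, the step that commits a cell to intrinsic apoptosis. Its anti-apoptotic members, or guardians, hold the pore-forming effectors and their activators in check by binding them. The BH3-only members respond to damage, stress or growth factor loss by occupying the guardians or by activating the effectors directly. In prostate cancer the guardians have long been studied for their part in resistance to hormonal and cytotoxic therapy. The family was taken here as 10 genes found by gene symbol, each matching 1 of the 57603 gene identifiers in the table. They are the guardians BCL2, BCL2L1 and MCL1, the effectors BAX and BAK1, and the BH3-only genes BCL2L11, BBC3, PMAIP1, BID and BIK. All 10 passed the filter of a mean normalized count of at least 10 and were tested among 17876 genes. The lowest of them, BIK, ranged from 116 to 254 normalized counts over the 8 libraries, far above that limit.

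The cells were 22Rv1, an established line from a human prostate carcinoma, carrying either a GFP transgene or an HNF4G transgene, both driven by the murine stem cell virus promoter. HNF4G is an orphan nuclear receptor of the gastrointestinal lineage, and GFP is the fluorescent control protein. Each line received 25 nM ABBV-075, an inhibitor of the BET bromodomain proteins that read acetylated chromatin, or the solvent DMSO alone, for 24 h. The 4 groups are named by transgene and treatment, such as HNF4G-ABBV-075, and had 2 libraries each, numbered 1 and 2. All groups thus carried a transgene, and no parental cells were analysed here. Nothing in the sources says that libraries 1 and 2 were grown separately, and the p-values then rest on a spread that may be only technical. In such bulk samples, a lower level in every cell and the loss of cells with a high level cannot be told apart.

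The libraries held 31508275 to 40262678 reads. All 8 prostate luminal markers examined were present, and none of the 9 basal, immune and endothelial markers reached a mean of 10. The 4 stromal markers summed to 152.4 to 348.1 normalized counts, against at least 92557.5 for the luminal set. HNF4G transcripts matched the labels. In GFP cells they were at 1087.8 and 993.0 normalized counts under DMSO and 206.0 and 213.4 under ABBV-075. In HNF4G cells they were at 10109.5 and 12104.0 under DMSO and 43972.2 and 34115.9 under ABBV-075. In 2 libraries the reads fell on transcripts of lower GC content, with a mean of 46.6% in HNF4G-DMSO number 2 and 46.5% in HNF4G-ABBV-075 number 1 against 47.7% to 48.2% in the other 6. This bears on the family directly, because 5 members have GC-rich transcripts of 55.9% to 69.7% (BIK, BCL2L1, BAK1, BAX and BBC3) and 5 have transcripts of 36.7% to 48.0% (PMAIP1, BCL2, MCL1, BCL2L11 and BID). Within HNF4G-DMSO, number 2 was below number 1 for all 5 GC-rich members, by log2 differences from -0.24 for BCL2L1 to -0.99 for BBC3. Within HNF4G-ABBV-075, number 2 was above number 1 for the same 5, by 0.32 for BCL2L1 to 1.37 for BBC3. The other 5 members differed by -0.25 to 0.31 in these 2 groups. In the GFP groups no member differed by more than 0.22. All comparisons that include HNF4G cells hold at least 1 of these 2 libraries. For many of these results, though not all, values are also given with the 2 left out. The counts of called members are given for log2 values corrected for GC content and transcript length. Leaving both out keeps 1 library in each HNF4G group, whose spread is then not measured. Only sizes of change are therefore given for single members in that setting.

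**Figure D1:**
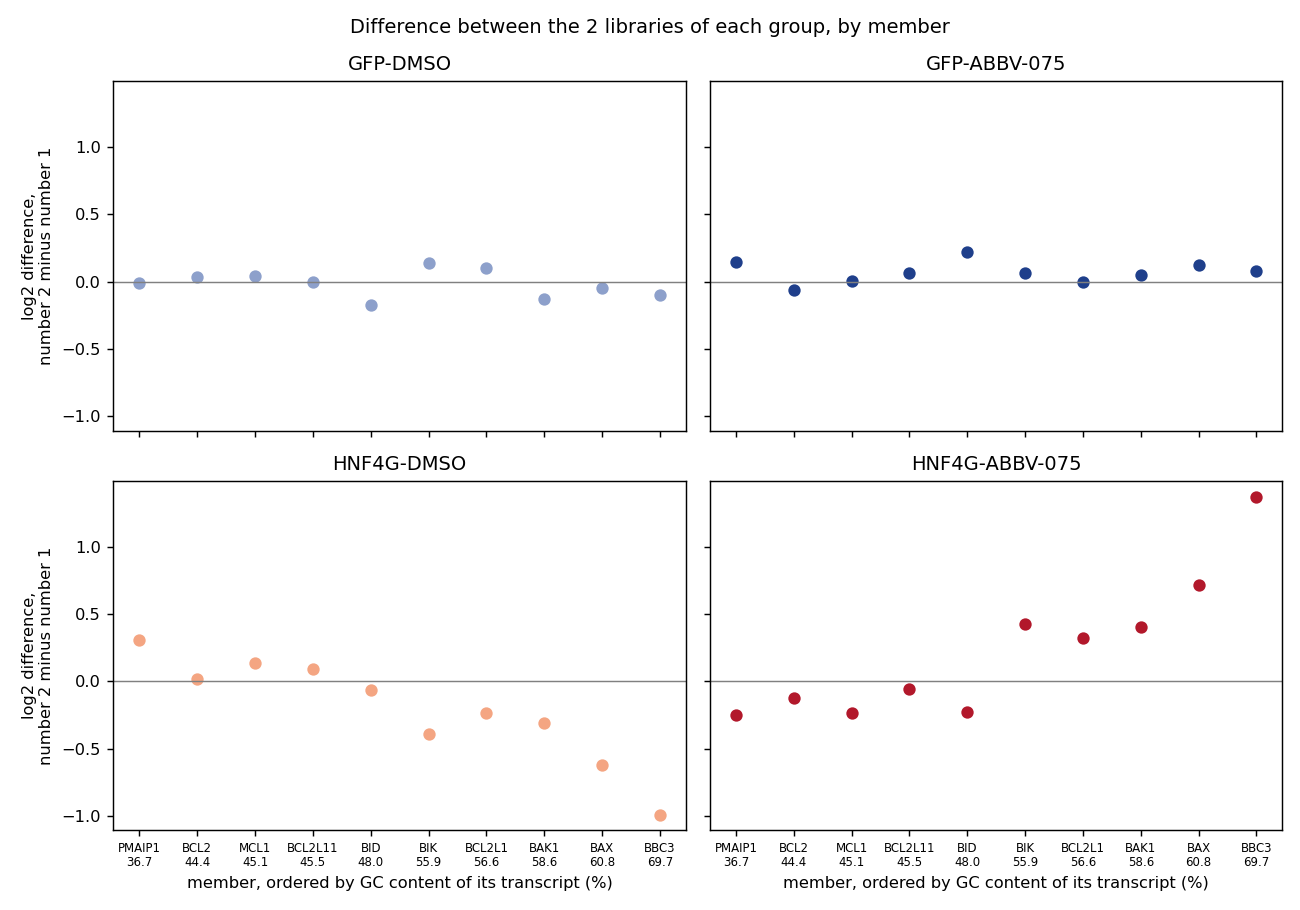
Difference between the 2 libraries of each group (log2, number 2 minus number 1) for the 10 members, ordered on the x axis by the GC content of their transcripts in percent; each point is 1 member. The points lie between -0.18 and 0.22 in the GFP groups, and spread from -0.99 to 1.37 in the HNF4G groups, with BBC3 at both ends.

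The upstream sequences of 3 members are shown because these genes differ in the motifs that a text search finds. With ABBV-075, BAK1 and PMAIP1 were also called in opposite directions in HNF4G cells, though not in GFP cells, and BAX was not called. Both calls were lost in some alternative analyses, and a link between motifs and changes was not tested. Each sequence is the 250 bases before the RefSeq start site (GRCh38.p14), printed 5′ to 3′ on the gene's strand. Capitals mark matches, on either strand, to the E-box CACGTG, the GC box GGGCGG, the CCAAT box CCAAT, the TATA box TATAAA and TGACG, the core of the cyclic AMP response element. PMAIP1 lies on the plus strand at chr18:59899746-59899995, BAX on the plus strand at chr19:48954625-48954874 and BAK1 on the minus strand at chr6:33580277-33580526.
PMAIP1: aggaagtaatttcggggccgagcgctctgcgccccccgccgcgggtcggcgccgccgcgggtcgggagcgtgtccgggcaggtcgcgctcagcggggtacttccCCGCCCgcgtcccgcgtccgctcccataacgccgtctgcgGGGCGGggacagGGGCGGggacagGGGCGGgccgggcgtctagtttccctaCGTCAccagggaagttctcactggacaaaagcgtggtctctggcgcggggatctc
BAX: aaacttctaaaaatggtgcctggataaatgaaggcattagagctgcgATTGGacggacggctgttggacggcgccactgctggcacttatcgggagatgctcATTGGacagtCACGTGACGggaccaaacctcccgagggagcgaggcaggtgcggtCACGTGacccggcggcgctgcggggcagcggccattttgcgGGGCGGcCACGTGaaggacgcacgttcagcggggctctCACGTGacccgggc
BAK1: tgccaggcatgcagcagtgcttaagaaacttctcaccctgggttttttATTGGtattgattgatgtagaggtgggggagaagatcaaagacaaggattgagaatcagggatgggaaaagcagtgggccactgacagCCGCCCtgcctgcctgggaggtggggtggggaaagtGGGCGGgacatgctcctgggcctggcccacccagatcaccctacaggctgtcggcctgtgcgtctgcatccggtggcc
The BAX window held 4 E-boxes, 1 of them overlapping a TGACG, and also 1 GC box and 2 CCAAT boxes. Among 35116 such windows 6.3% held an E-box and 5 windows held at least 4. The PMAIP1 window held 4 GC boxes and 1 TGACG, and the BAK1 window held 2 GC boxes and 1 CCAAT box. A GC box was found in 42.6% of all windows, a CCAAT box in 32.0%, TGACG in 21.2% and TATAAA in 10.7%. The 3′ ends of the BAX and BAK1 windows lie inside these genes as annotated in GENCODE 44 (chr19:48954815-48961798 and chr6:33572547-33580293), with some of the BAX matches. The BCL2 window, of 70.0% GC, held 1 TGACG and no other of these motifs, and it lies wholly within the first exon of another GENCODE 44 transcript of BCL2. RefSeq windows were matched for 8 members, and MCL1 and BIK had no entry. These matches are letters in a window and say nothing of which factor was bound.

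With ABBV-075, the guardians moved apart. BCL2, the founding member and the target of venetoclax, fell to 0.409 of its DMSO level in GFP cells and to 0.492 in HNF4G cells. MCL1, a guardian whose protein turns over quickly, rose 1.59-fold and 1.54-fold. BCL2L1, which encodes BCL-XL, was not called in either line. BAK1 rose and BID and PMAIP1 fell in HNF4G cells, and these 3 calls were lost in some of the alternative analyses, unlike those of BCL2 and MCL1. The other members, BAX, BCL2L11, BBC3 and BIK, were not called in any comparison of the limma fit of all 8 libraries, and some were called in alternative analyses given below.

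BCL2 (chr18:63123346-63320128 in GENCODE 44 on hg38, as for all members, minus strand) had 654 and 671 normalized counts in GFP cells under DMSO and 277 and 264 under the drug, and in HNF4G cells 833 and 843 without it and 430 and 394 with it. The 4 treated libraries lay below all 4 DMSO libraries, and in each treatment both HNF4G libraries lay above both GFP libraries. The log2 change with ABBV-075 was -1.29 ± 0.11 (SE, n = 2 against 2) in GFP cells (limma, adjusted p = 0.00017) and -1.02 ± 0.11 in HNF4G cells (limma, adjusted p = 0.00051). Of all tested genes, 7.1% had a lower log2 change than BCL2 in GFP cells and 9.5% in HNF4G cells. Without the 2 libraries of low GC content the changes were -1.29 and -1.08.

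MCL1 (chr1:150560895-150579738, minus strand) had the highest counts of the family, with 13959 and 14356 normalized counts in GFP cells under DMSO and 22445 and 22525 under the drug, and in HNF4G cells 14456 and 15849 without it and 25391 and 21546 with it. All 4 treated libraries exceeded all 4 DMSO libraries. Its log2 change was 0.67 ± 0.10 in GFP cells (limma, adjusted p = 0.0018) and 0.63 ± 0.10 in HNF4G cells (limma, adjusted p = 0.0025). Without the 2 libraries of low GC content the HNF4G change was 0.58. MCL1 and BCL2L1 are known for splice forms with opposing activities, which counts per gene do not separate.

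BCL2L1 (chr20:31664452-31723989, minus strand) had 1315 and 1411 normalized counts in GFP cells under DMSO and 1367 and 1361 under the drug, and in HNF4G cells 1410 and 1196 without it and 1067 and 1336 with it. The ranges of the treated and control libraries overlapped in both lines. In GFP cells the log2 change was 0.00 with a 95% interval from -0.32 to 0.33. In HNF4G cells it was -0.12 with an interval from -0.45 to 0.20, and -0.08 without the 2 low-GC libraries.

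**Figure D2:**
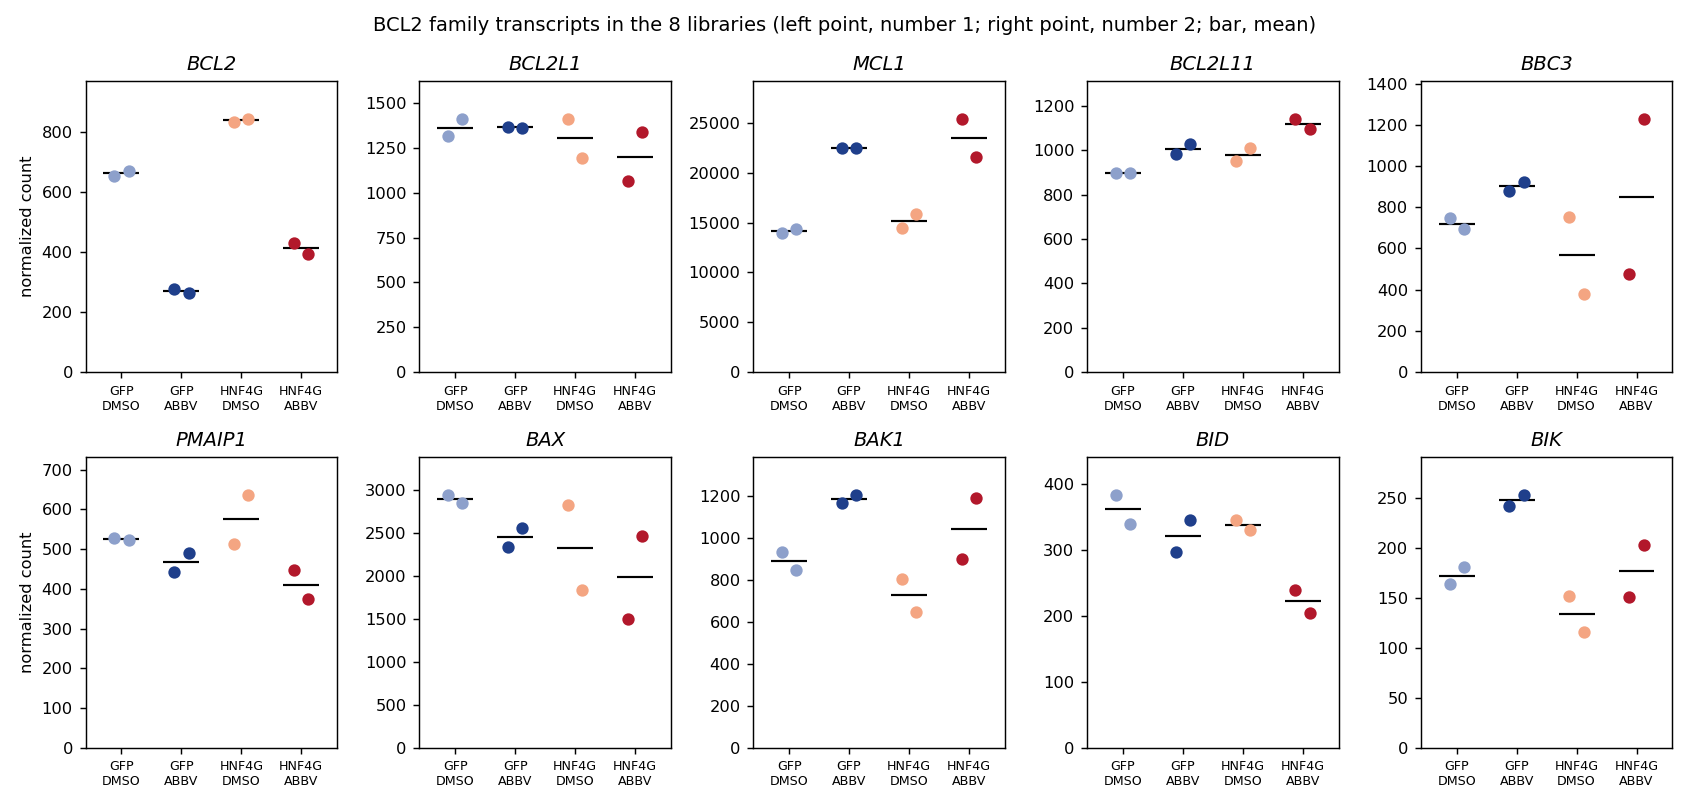
Normalized counts (y axis, linear from 0) of the 10 members in the 8 libraries by group; the left point of each group is number 1, the right point number 2 and the bar their mean. BCL2 is lower and MCL1 higher in all 4 ABBV-075 libraries than in all 4 DMSO libraries, and BBC3 spans 474 to 1228 within HNF4G-ABBV-075.

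Divided by the length of the transcript, the summed level of the 3 guardians among the members was mostly MCL1, and its share was larger under ABBV-075. BCL2L2, another anti-apoptotic gene that is not among the 10 members, is left out of these shares, and had 1595 to 1803 normalized counts in the DMSO libraries and 1388 to 1545 in the treated ones, with no call in either line. MCL1 made up 84.6% to 87.2% of the summed level per kilobase of the 3 guardians in the DMSO libraries and 90.4% to 93.1% in the ABBV-075 libraries. BCL2 made up 2.28% to 2.80% and 0.61% to 0.95%, and BCL2L1 10.1% to 12.8% under DMSO and at most 8.61% under the drug. The ratio of MCL1 to BCL2 per kilobase was 30.2 to 37.3 under DMSO and 95.2 to 148.5 under ABBV-075. The sum of the 3 rose from 4139.9 to 4599.5 normalized counts per kilobase under DMSO to 6031.0 to 6904.9 under ABBV-075, with no overlap. The ranges of all of these shares and ratios were apart between treatments, as descriptions of the same counts tested above.

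**Figure D3:**
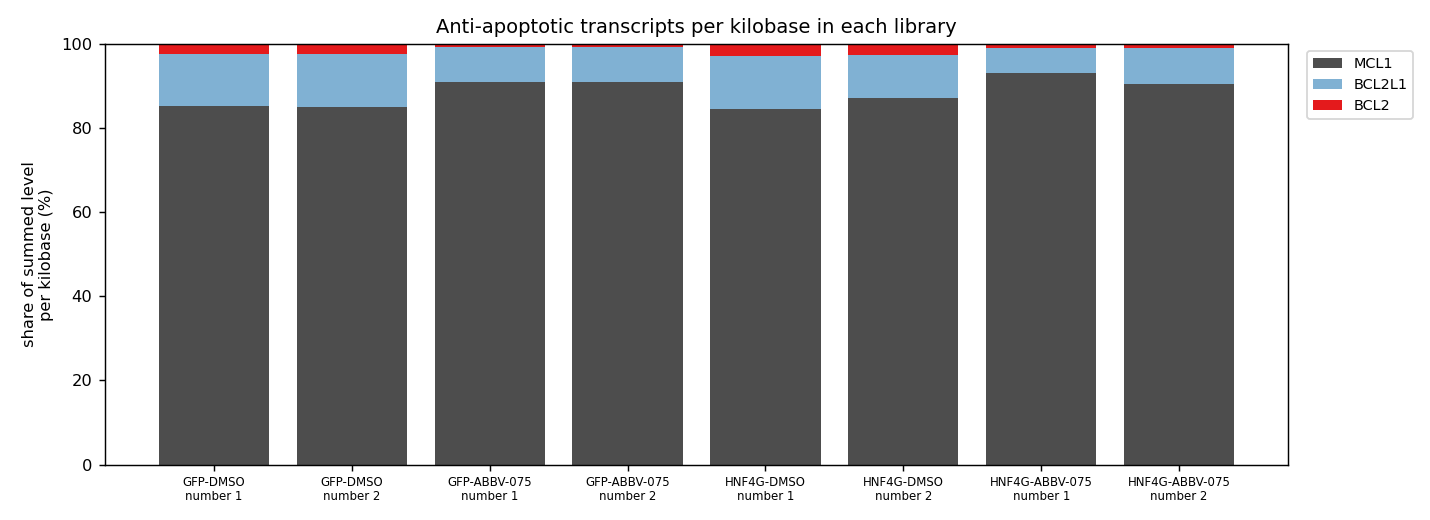
Share (%) of the summed level per kilobase of MCL1, BCL2L1 and BCL2 in each of the 8 libraries; bars start at 0 and stack to 100%. MCL1 takes 84.6% to 87.2% of each DMSO bar and 90.4% to 93.1% of each ABBV-075 bar, and BCL2 is below 1% in all ABBV-075 bars.

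Of the effectors, which form the pore in the outer membrane, BAK1 rose with ABBV-075 in HNF4G cells, while BAX was not called. BAK1 (chr6:33572547-33580293, minus strand) had 930 and 849 normalized counts in GFP cells under DMSO and 1163 and 1205 under the drug, and in HNF4G cells 804 and 647 without it and 898 and 1188 with it. Treated libraries lay above the controls in both lines. On the log2 scale BAK1 changed by 0.41 ± 0.16 in GFP cells (limma, adjusted p = 0.089) and 0.52 ± 0.16 in HNF4G cells (limma, adjusted p = 0.046). The HNF4G call was lost on leaving out any 1 library except number 1 of either HNF4G group, with log2 changes of 0.31 to 0.52 and adjusted p of 0.081 to 0.21 in limma. The GFP value passed the threshold without either HNF4G-ABBV-075 library, at the same change and limma adjusted p of 0.029 and 0.03. BAK1 is GC-rich, and with the 2 low-GC libraries left out its change was 0.41 in GFP cells and 0.56 in HNF4G cells. When only the 4 libraries compared were fitted, BAK1 was called in GFP cells and not in HNF4G cells. That fit called 60.1% of all tested genes in GFP cells and 15.6% in HNF4G cells.

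BAX (chr19:48954815-48961798, plus strand) had 2942 and 2848 normalized counts in GFP cells under DMSO and 2339 and 2551 under the drug, and in HNF4G cells 2822 and 1834 without it and 1500 and 2465 with it. The GFP groups did not overlap and the HNF4G groups did. On the log2 scale the difference was -0.25 ± 0.26 in GFP cells (limma, adjusted p = 0.50) and -0.24 ± 0.26 in HNF4G cells (limma, adjusted p = 0.51). Leaving out the 2 low-GC libraries gave -0.25 in GFP cells and -0.20 in HNF4G cells. In a fit of only the 4 libraries compared, BAX was called in GFP cells (60.1% of all genes were) and not in HNF4G cells (15.6%). The ratio of BAK1 to BAX per kilobase was 0.104 to 0.129 under DMSO and 0.173 to 0.219 under ABBV-075, with no overlap between treatments.

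Among the BH3-only genes, PMAIP1 and BID fell with ABBV-075 in HNF4G cells, and BCL2L11, BBC3 and BIK were not called. PMAIP1 (chr18:59899996-59904305, plus strand), which encodes NOXA, a BH3-only protein that binds MCL1, had 528 and 523 normalized counts in GFP cells under DMSO and 443 and 490 under the drug, and in HNF4G cells 514 and 637 without it and 446 and 375 with it. Treated libraries lay below the controls in both lines. The log2 change was -0.17 ± 0.15 in GFP cells (limma, adjusted p = 0.42) and -0.48 ± 0.15 in HNF4G cells (limma, adjusted p = 0.042). Without both low-GC libraries the HNF4G change was -0.455. On leaving out 1 library the HNF4G call was lost in 6 of 8 cases, the exceptions again being number 1 of each HNF4G group, with log2 changes of -0.48 to -0.33 and limma adjusted p of 0.076 to 0.21.

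BID (chr22:17734138-17774770, minus strand), whose protein links caspase-8 to the mitochondrion when it is cleaved, had 384 and 339 normalized counts in GFP cells under DMSO and 297 and 346 under the drug, and in HNF4G cells 345 and 330 without it and 240 and 205 with it. Its HNF4G-ABBV-075 libraries were the lowest of the 8. The log2 change was -0.17 ± 0.15 in GFP cells (limma, adjusted p = 0.41) and -0.61 ± 0.15 in HNF4G cells (limma, adjusted p = 0.016). Without HNF4G-DMSO number 1 or number 2 the HNF4G call was lost, at changes of -0.64 to -0.57. With both low-GC libraries left out the HNF4G change was -0.75.

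BCL2L11 (chr2:111119378-111168444, plus strand), which encodes BIM, a strong binder of all guardians, had 899 and 895 normalized counts in GFP cells under DMSO and 984 and 1028 under the drug, and in HNF4G cells 949 and 1011 without it and 1140 and 1097 with it. Treated libraries lay above the controls in both lines, by a log2 difference of 0.17 ± 0.10 in GFP cells (limma, adjusted p = 0.25) and 0.19 ± 0.10 in HNF4G cells (limma, adjusted p = 0.19). With the low-GC libraries left out the GFP value was of the same size and the HNF4G value was 0.21. Fitting only the 4 libraries compared, BCL2L11 was called in GFP cells (60.1% of all genes were) and not in HNF4G cells (15.6%). The ratio of BCL2L11 to BCL2 per kilobase was 1.54 to 1.86 under DMSO and 3.58 to 5.25 under ABBV-075. The ratio of BCL2L11 to MCL1 went the other way, from 0.0483 to 0.0509 under DMSO to 0.034 to 0.0395 under ABBV-075.

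BBC3 (chr19:47220822-47232766, minus strand), which encodes PUMA, had 745 and 696 normalized counts in GFP cells under DMSO and 877 and 924 under the drug, and in HNF4G cells 754 and 379 without it and 474 and 1228 with it. The GFP groups did not overlap, the HNF4G groups did, and the 2 libraries of low GC content gave the lowest values. In log2 units the difference was 0.32 ± 0.44 in GFP cells (limma, adjusted p = 0.61) and 0.51 ± 0.44 in HNF4G cells (limma, adjusted p = 0.41). Without both libraries it was 0.32 and 0.70, and without HNF4G-ABBV-075 number 1 alone the HNF4G change was 1.2. When only the 4 libraries compared were fitted, BBC3 was called in GFP cells (60.1% of all genes were) and not in HNF4G cells (15.6%).

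BIK (chr22:43110750-43129712, plus strand), a BH3-only gene whose protein sits in the endoplasmic reticulum, had 165 and 181 normalized counts in GFP cells under DMSO and 242 and 254 under the drug, and in HNF4G cells 152 and 116 without it and 151 and 204 with it. The GFP groups did not overlap and the HNF4G groups did, the lower treated value of 151.4 lying just under the higher control value of 152.2. The log2 change was 0.52 ± 0.20 in GFP cells (limma, adjusted p = 0.075) and 0.40 ± 0.20 in HNF4G cells (limma, adjusted p = 0.16). Leaving out either HNF4G-ABBV-075 library kept the GFP change at 0.52. Without HNF4G-ABBV-075 number 1 the HNF4G change was 0.61. There 1 library stands for that group, and the low-GC library of HNF4G-DMSO remains. With both low-GC libraries left out the changes were 0.52 and 0.42. In a fit of only the 4 libraries compared, BIK was called in GFP cells (60.1% of all genes were) and not in HNF4G cells (15.6%).

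**Figure D4:**
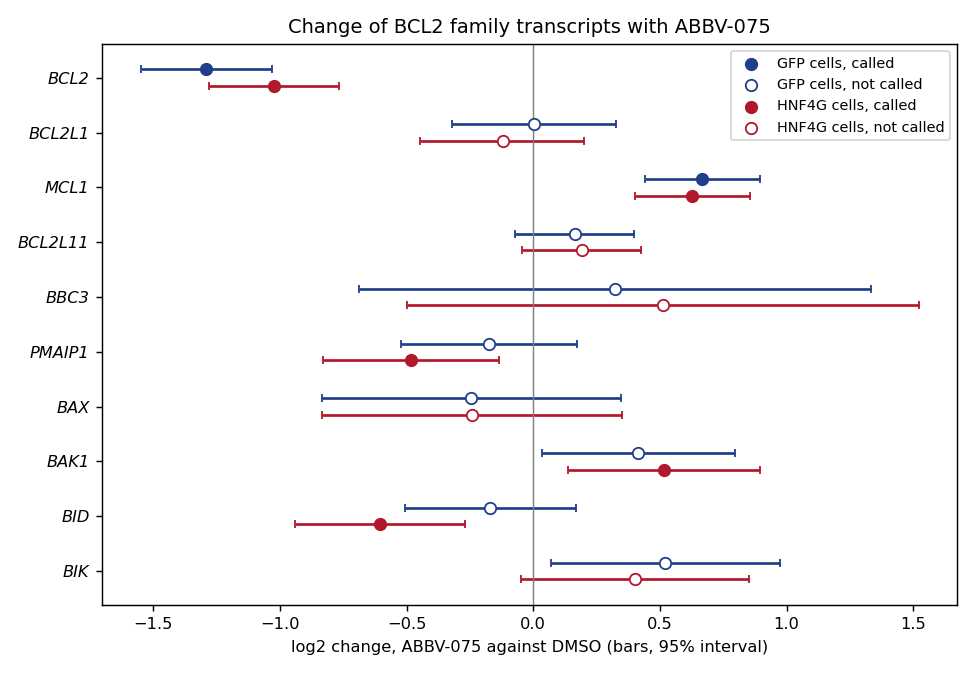
Log2 change with ABBV-075 against DMSO (x axis; bars, 95% intervals) of the 10 members in GFP cells (blue) and HNF4G cells (red); filled points were called in limma and open points were not. BCL2 lies near -1.29 and -1.02 and MCL1 near 0.67 and 0.63, while the intervals of BBC3 run from -0.69 to 1.33 and from -0.50 to 1.52.

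In GFP cells 2 of the 10 members were called, 1 higher and 1 lower, where 14.2% of all tested genes were called higher and 19.2% lower. In HNF4G cells 5 were called, 2 higher and 3 lower, where 12.9% were called higher and 18.3% lower. The median log2 change of the members was 0.08 in GFP cells and 0.04 in HNF4G cells, beside -0.01 and 0.02 over all tested genes. The treated and control libraries did not overlap for 8 members in GFP cells and 6 in HNF4G cells, and for 79.0% and 59.0% of all tested genes. With only the 4 libraries compared in the fit, 7 members were called in GFP cells and 2 in HNF4G cells, with 60.1% and 15.6% of all genes then called. After the log2 values had been corrected for GC content and length, the counts were 8 and 9, with 57.0% and 55.7% of all genes called.

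Whether the HNF4G transgene altered the family or its response was addressed by comparing the lines. These comparisons share libraries with those above. HNF4G transcripts were higher under ABBV-075 than under DMSO in HNF4G cells and lower in GFP cells. The lines are therefore compared at unlike HNF4G levels in the 2 treatments, and the effect of this was not tested. Under DMSO none of the 10 members was called in limma, edgeR or DESeq2, where 0.783% of all genes were called higher and 0.117% lower in HNF4G cells. BCL2 alone had an unadjusted p under 0.05, with a log2 difference of 0.34 ± 0.11 (limma, adjusted p = 0.30). Under ABBV-075 BCL2 was called higher in HNF4G cells, by 0.61 ± 0.11 (limma, adjusted p = 0.040), where 1.64% of all genes were called higher and 0.336% lower. That call held on leaving out HNF4G-ABBV-075 number 2 and was lost on leaving out any other of the 8 libraries, with differences of 0.54 to 0.64 and limma adjusted p of 0.068 to 0.36. It was also lost in edgeR and DESeq2, and the difference was 0.54 without the 2 low-GC libraries. BID was lower in both HNF4G-ABBV-075 libraries than in both GFP-ABBV-075 libraries, with a log2 difference of -0.53 ± 0.15 (limma, adjusted p = 0.15). With the low-GC libraries left out this difference was -0.65. BIK differed by -0.50 ± 0.20 (limma, adjusted p = 0.29) and, with those libraries left out, by -0.28. BBC3 was at -0.24 (limma, adjusted p = 0.82) and turned to 0.45 with them left out, where 1 library stands for HNF4G-ABBV-075.

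The interaction asks whether the response to ABBV-075 differed between the lines. None of the 10 members was called, none had an unadjusted p under 0.05 in limma, and edgeR and DESeq2 called none, where 0.0112% of all genes were called higher and 0% lower in limma. The difference of the responses was 0.27 for BCL2 (95% interval, -0.10 to 0.63) and -0.04 for MCL1 (-0.36 to 0.28). It was -0.31 for PMAIP1 (-0.80 to 0.18), -0.43 for BID (-0.91 to 0.04) and 0.10 for BAK1 (-0.43 to 0.64). Without the 2 low-GC libraries it was 0.21 for BCL2, -0.09 for MCL1, -0.28 for PMAIP1, -0.58 for BID and 0.15 for BAK1. The calls of BAK1, BID and PMAIP1 in HNF4G cells and not in GFP cells are thus not shown to differ between the lines, and the intervals of these 3 still hold differences of more than 0.6.

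Levels of the members spanned a wide range. Per kilobase of transcript, GFP-DMSO cells had 3641 ± 83.9 normalized counts of BAX (SD, n = 2) and 3584 ± 71.0 of MCL1, and the values of the 2 genes overlapped. BCL2L1 followed at 529.6 ± 26.4, then BAK1 at 409.8 ± 26.5 and BBC3 at 390.4 ± 18.8, whose values overlapped, and PMAIP1 at 277 ± 1.91. BIK at 182 ± 12.1, BCL2L11 at 176 ± 0.56 and BID at 166 ± 14.5 overlapped, and BCL2 was lowest at 96.3 ± 1.70. MCL1 ranked highest and BCL2 lowest in each of the other 3 groups, where BCL2 stood at 39.3, 122 and 59.9, though in HNF4G-DMSO the values of BCL2 and BIK overlapped. The place of BAX depends on the transcript taken, since over all of its annotated exons it had 1119 per kilobase against 2275 for MCL1. Other places moved too on that length in GFP-DMSO. BAK1 at 402 then stood above BCL2L1 at 325, and PMAIP1 at 241 above BBC3 at 226.

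Transcripts nearest to BCL2 in pattern over the 8 libraries, by the root-mean-square difference of centred log2 values among 10242 genes, were SYPL2 at 0.05, PON2 at 0.07 and ZBED3 at 0.08. SYPL2, for example, had 212.9 and 216.2 normalized counts in GFP cells under DMSO and 100.3 and 90.0 under the drug, and in HNF4G cells 289.0 and 291.3 without it and 147.5 and 131.7 with it.

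In the rest of the family, 13 further genes were listed and 10 were tested. With ABBV-075, 2 were called higher and 2 lower in each line. BNIP3L, a receptor that marks mitochondria for removal, had 3250 to 4945 normalized counts in the DMSO libraries and 9329 to 11620 in the treated ones, a log2 change of 1.54 ± 0.12 in GFP cells and 1.21 ± 0.12 in HNF4G cells (limma, adjusted p = 0.0001 and 0.00031). BMF, a BH3-only gene linked to loss of attachment, rose by 0.44 ± 0.13 and 0.57 ± 0.13 (limma, adjusted p = 0.036 and 0.014). BOK, an effector-like member, had 289 to 492 in the DMSO libraries and 81.5 to 199 in the treated ones, with changes of -1.94 ± 0.39 and -1.54 ± 0.39 (limma, adjusted p = 0.0072 and 0.02). HRK, a BH3-only gene known from neurons, had log2 changes of -0.80 and -1.32 and a mean of 34.4 normalized counts over all libraries.

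Downstream of the mitochondrion, 3 of 8 tested genes of the caspases and apoptosome were called higher and 2 lower in GFP cells, and 2 higher and 1 lower in HNF4G cells. CASP9, the initiator caspase of the apoptosome, rose by 0.75 ± 0.14 and 0.90 ± 0.14 (limma, adjusted p = 0.0045 and 0.0023), and CASP6 by 0.52 ± 0.10 and 0.42 ± 0.10 (limma, adjusted p = 0.0063 and 0.016). CASP2 fell by 0.32 ± 0.10 (limma, adjusted p = 0.036) in GFP cells. Of 7 tested inhibitors of apoptosis and their antagonists, BIRC5 alone was called in GFP cells, falling by 0.31 ± 0.10 (limma, adjusted p = 0.038), and none in HNF4G cells.

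Among 10 genes for membrane partners and for turnover of BCL2 proteins, 2 were called higher and 2 lower in GFP cells, and 1 higher and 2 lower in HNF4G cells. USP9X, a deubiquitinase that stabilises MCL1 protein, rose by 0.50 ± 0.14 and 0.59 ± 0.14 (limma, adjusted p = 0.031 and 0.017). MARCHF5, a ubiquitin ligase of the outer membrane, rose by 0.42 ± 0.11 in GFP cells (limma, adjusted p = 0.024). VDAC2, the channel that binds BAK1 in the outer membrane, fell, with changes of -0.34 ± 0.09 and -0.37 ± 0.09 (limma, adjusted p = 0.021 and 0.017), and VDAC1 changed likewise, with -0.56 ± 0.10 and -0.59 ± 0.10 (limma, adjusted p = 0.0032 and 0.0028).

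Of 8 tested transcription factors known to act on BH3-only genes, 3 were called higher and 1 lower in GFP cells, and 3 higher and none lower in HNF4G cells. JUN had 956 to 1291 normalized counts in the DMSO libraries and 2648 to 3749 in the treated ones, with changes of 1.54 ± 0.15 and 1.55 ± 0.15 (limma, adjusted p = 0.0003 and 0.00033). DDIT3, the stress factor CHOP, rose by 0.76 ± 0.10 in GFP cells and 0.59 ± 0.10 in HNF4G cells (limma, adjusted p = 0.001 and 0.0033). FOXO3 rose by 0.59 ± 0.12 in HNF4G cells (limma, adjusted p = 0.0086). In GFP cells FOXO3 was also called higher, and the gene called lower was TP73, which fell by 1.19 ± 0.38 (limma, adjusted p = 0.045) from a mean of 41.6 normalized counts over all libraries.

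Of 20 damage response genes outside the family, 2 were called higher and 7 lower in GFP cells, and 3 higher and 6 lower in HNF4G cells. FAS, the death receptor, had 473 to 621 normalized counts in the DMSO libraries and 87.0 to 160.1 in the treated ones, with changes of -2.15 ± 0.23 and -1.98 ± 0.23 (limma, adjusted p = 0.00041 and 0.00066). PHLDA3, an inhibitor of AKT, fell, with changes of -1.49 ± 0.39 and -1.28 ± 0.39 (limma, adjusted p = 0.022 and 0.04). RRM2B, a subunit of ribonucleotide reductase, rose by 0.81 ± 0.14 and 0.69 ± 0.14 (limma, adjusted p = 0.0038 and 0.0084). Between the lines, TNFRSF10B, a receptor for TRAIL, was called higher in HNF4G cells under ABBV-075, by 0.60 ± 0.09 (limma, adjusted p = 0.021), and no other gene of these 6 lists was called in the line comparisons or the interaction. The shares of all genes called higher and lower, given above for each comparison, are the background for these counts.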

How the data were processed

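Poly-A RNA of 22Rv1 cells was sequenced from paired ends, and the labelled transgene and treatment put the 8 libraries in 4 groups. Reads were mapped to hg38 by the authors using STAR, given as version 2.6 in the submitters' processing notes and as another version in the study's methods, which state expression as log2 TPM. The deposited signal is instead a normalized count per gene, the reads divided by 1 size factor per library. Whole reads were recovered from it, with 100% of values above 0 within 0.01 of a whole number. Not given in the sources used here are the counter, its strand setting and the annotation. Exons of 7 other genes overlap those of BCL2L1, MCL1, BCL2L11, BBC3 or BAK1, and all have means of at most 29.1. No spike-in was analysed here, so values are relative to each library.

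Log2(normalized count + 1) of the 17876 genes whose mean was 10 or more entered 1 limma fit (version 3.58.1, R 4.3.3, intensity trend) of the 4 group means over all 8 libraries. Fold changes are on that scale, which understates changes of low genes. Tests were two-sided, with Benjamini-Hochberg adjustment over all genes and calls under 0.05. Scripts were tested on simulated data. Alternatives were edgeR 4.0.16 and DESeq2 1.42.0 on the recovered reads, pseudocounts, filters, rescalings, a replicate block, untrended or robust limma, a GC content and length correction, fewer libraries and leaving out each library, where a lone library is assumed to vary like the other groups. Lengths and GC content came from the MANE Select transcripts of GENCODE 44.

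The members and lists were chosen with earlier results of these data known. Genes named beside the members were, per list and drug comparison, up to 2 rising and 2 falling called genes of largest change whose mean was 50 or more and whose compared libraries did not overlap, and every called gene in the line comparisons and the interaction. For BCL2, the member of largest change in GFP cells, the 3 named genes of nearest pattern with a mean of at least 100 were added. HRK, TP73, BCL2L2, FOXO3 in GFP cells and DDIT3 in HNF4G cells lie outside this rule. They were named after their values were seen, as were the 3 promoters shown. Some genes of these lists are not reported singly here, while the counts hold every tested member. No amino acid sequences were used here.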

Additional observations from a re-analysis of the deposited data

How the results depend on the processing

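The calls of BCL2 and MCL1 with ABBV-075 held in both lines in all 25 alternatives, with log2 changes of -1.32 to -1.14 and -1.09 to -0.95 for BCL2 and 0.63 to 0.71 and 0.51 to 0.75 for MCL1. In HNF4G cells the call of PMAIP1 was lost in 12 of 25, that of BAK1 in 10 and that of BID in 4, and BCL2 between the lines under ABBV-075 was lost in 14. No cause was tested. Counts below for fits without both low-GC libraries or without 1 library rest on groups of 1 library, whose own spread is not measured. In GFP cells, where 2 members were called, the count was 4 with quantile scaling, 7 with only the 4 libraries compared or without both low-GC libraries, and 8 with the GC content and length correction, with or without the replicate block, and 2 to 4 on leaving out 1 library. In HNF4G cells, where 5 were called, it was 3 with no filter, without the trend or with the replicate block, 2 with only the 4 libraries, 9 with the GC correction, with or without the block, and 2 to 7 on leaving out 1 library. Between the lines under ABBV-075, where 1 was called, it was 0 with no filter, quantile scaling, the block, only the 4 libraries, no trend, edgeR or DESeq2, 2 with the GC correction, with or without the block, 3 without both low-GC libraries, and 0 to 1 on leaving out 1 library. Under DMSO and for the interaction no member was called in any alternative. BBC3 between the lines under ABBV-075 reversed, from -0.24 to 0.45 without both low-GC libraries. The counts over all genes moved as well. In GFP cells they went from 5966 to 10750 with only the 4 libraries and 10174 with the GC correction. In HNF4G cells they went from 5575 to 2785 and 9942. Between the lines under ABBV-075 they went from 353 to 2712 with the GC correction and 1881 with the block added. These were 1.97%, 15.2% and 10.5% of the genes tested. Without both low-GC libraries more genes were called in each of these comparisons too.

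Between groups, correlations across genes of the deviations of libraries with the same number ran from -0.59 to 0.13. The -0.59 was between HNF4G-DMSO and HNF4G-ABBV-075, where the low-GC libraries are number 2 and number 1. These correlations thus gave no sign of pairing and cannot settle whether the numbers pair the samples. The replicate block lost 3 calls, of BAK1 and PMAIP1 in HNF4G cells and of BCL2 between the lines under ABBV-075, and gained none. A crossed block, chosen after seeing the data, gave 3 and 5 calls with the drug and 1 between the lines under ABBV-075. With 2 libraries a group, the width of the intervals limits what can be said of the members that were not called.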
